A study of Mus musculus with 2 samples.

Results

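The Egr family (Egr1, Egr2, Egr3 and Egr4) and the Nr4a family (Nr4a1, Nr4a2 and Nr4a3) were examined in DNase-seq peaks of mouse hippocampus. The 7 genes were taken by name from the 21884 protein-coding genes with a unique symbol in GENCODE M21, on the mm10 assembly. Each locus was the gene and 50 kb either side. A promoter peak lay within 500 bp of any annotated transcript start of the gene, and a distal peak lay over 1 kb from every annotated start of any gene. The study comprised 2 libraries of hippocampal tissue, replicates 1 and 2 of 1 group: females of the B6CASTF1/J hybrid at 14 days of age, offspring of the inbred strains C57BL/6J and CAST/EiJ, with 3 females named in each library's label. No agent or engineered allele is named. Both libraries carry the same donor identifier and different biosample identifiers, and whether they came from separate animals or pools is not stated, so the spread between them may be technical. There was no second condition, and values are given per library beside those of all genes, without a test.

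Egr proteins are zinc-finger transcription factors that bind a GC-rich sequence. Nr4a proteins are orphan nuclear receptors that bind, often as monomers, an extended hormone-receptor site known as the NBRE. Both families belong to the immediate early genes, which neurons transcribe within minutes of synaptic activity without new protein synthesis. Serum response factor, acting at CArG boxes with ETS-domain partners, and CREB, acting at the cyclic AMP response element (CRE), are the classic activators of this class. In the hippocampus, Egr1 (also known as Zif268) and the Nr4a receptors are known for their part in memory consolidation. DNase I cuts DNA that is not wrapped in nucleosomes, so a peak marks accessible chromatin and not transcription itself.

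Replicate 1 had 115699 listed peaks and replicate 2 had 167829. Median signal, the value that the authors deposited with each peak and whose scale is not stated, was 0.821 and 0.485. Signal was therefore compared only within a library, and the depth in reads is unknown. Distal peaks of replicate 1 were richer in G and C, with a median GC content of 53.6% against 47.5% in replicate 2. Promoter peaks were present in both libraries at 4 of 4 neuronal markers, 4 of 4 markers of excitatory hippocampal neurons, 3 of 3 astrocyte markers and 2 of 2 microglial markers. Of the oligodendrocyte markers, Mbp had one in both libraries and Mog in neither. No promoter peak was found at 4 genes of other tissues (Alb, Myh6, Krt5, Cd3e). Of all protein-coding genes, 63.2% had such a peak in each of the 2 libraries. The hippocampus holds several cell types, and a peak cannot be assigned to one of them. Fewer cells of a type with open chromatin and less open chromatin per cell cannot be told apart.

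All 7 members had a promoter peak in both libraries. Across protein-coding genes the share with one was 67.2% in replicate 1, 64.9% in replicate 2 and 63.2% in both. The members' strongest promoter peaks are set beside the medians of genes with such a peak, 5.62 in replicate 1 and 2.52 in replicate 2. The members' median was 6.58 and 2.81, so most of them stood near the middle of accessible promoters, and Egr1 above it.

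The promoters of 5 members are shown, from the sequence around the start with the strongest peak, because CRE cores, marked in them, were found in promoter peaks of all the members. Capitals mark matches, on either strand, to a CArG box, to the CRE TGACGTCA or its core TGACG, or to the EGR site (GCGTGGGCG or GCGGGGGCG). Those of Egr2, Egr4 and Nr4a1 are RefSeq promoters (GRCm38.p6, which mm10 names), from 250 bases before to 50 after the start. Those of Nr4a2 and Nr4a3 are the replicate 1 peaks, ended 50 bases after the first start they cover.
Egr2, chr10:67537619-67537918, plus strand: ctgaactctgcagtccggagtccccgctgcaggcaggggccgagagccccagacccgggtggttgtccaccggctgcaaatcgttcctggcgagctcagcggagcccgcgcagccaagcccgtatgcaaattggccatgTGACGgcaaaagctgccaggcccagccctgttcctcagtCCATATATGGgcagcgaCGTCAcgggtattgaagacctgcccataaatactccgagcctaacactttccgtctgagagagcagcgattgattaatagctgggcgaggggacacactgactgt
Egr4, chr6:85513540-85513839, minus strand: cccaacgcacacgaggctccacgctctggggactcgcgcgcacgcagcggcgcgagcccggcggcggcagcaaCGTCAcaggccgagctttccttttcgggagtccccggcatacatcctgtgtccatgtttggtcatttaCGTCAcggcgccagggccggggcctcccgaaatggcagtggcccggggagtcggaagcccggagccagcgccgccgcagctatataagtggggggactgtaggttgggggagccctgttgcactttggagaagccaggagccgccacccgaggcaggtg
Nr4a1, chr15:101266596-101266895, plus strand: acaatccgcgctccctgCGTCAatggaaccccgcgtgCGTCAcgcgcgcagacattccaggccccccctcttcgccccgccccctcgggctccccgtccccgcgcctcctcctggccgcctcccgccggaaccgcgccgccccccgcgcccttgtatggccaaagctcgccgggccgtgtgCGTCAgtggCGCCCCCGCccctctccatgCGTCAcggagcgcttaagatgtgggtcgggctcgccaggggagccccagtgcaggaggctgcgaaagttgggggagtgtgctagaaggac
Nr4a2, chr2:57114989-57115100, minus strand: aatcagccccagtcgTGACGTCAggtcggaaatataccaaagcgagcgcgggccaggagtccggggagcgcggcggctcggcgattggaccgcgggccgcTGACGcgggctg
Nr4a3, chr4:48044981-48045202, plus strand: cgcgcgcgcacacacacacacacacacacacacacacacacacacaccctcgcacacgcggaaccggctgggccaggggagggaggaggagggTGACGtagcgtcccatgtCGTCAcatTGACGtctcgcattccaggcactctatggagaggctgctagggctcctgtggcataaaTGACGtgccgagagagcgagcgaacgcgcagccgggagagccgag

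Egr1, the best studied Egr gene in learning (chromosome 18, 34859823 to 34864984), had the strongest promoter of the 7 in both libraries. Its highest peak reached 16.5 in replicate 1 and 5.60 in replicate 2, at percentiles 94.3 and 84.2 of genes with a promoter peak. GENCODE annotates starts at 34859823 and, 1384 bp downstream, at 34861207, where the RefSeq gene table begins Egr1. The upstream start carried the 16.5 and 5.60 peak. The second carried a peak of 12.5 and 5.13. Both peaks lie in the 5′ UTR of the longer transcript. A weaker peak over the coding sequence near the second start had 2.44 and 0.819.

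Egr2 (chromosome 10, 67535475 to 67542188), known as Krox20 for its part in hindbrain segmentation and myelination, was most accessible well inside its annotated bounds. The starts 2394 to 2455 bp downstream of the 5′ end had 5.27 in replicate 1 and 2.65 in replicate 2, near the medians of accessible promoters. At the 5′ end the libraries differed. Replicate 1 had peaks of 1.08 over the start and 3.05 within 500 bp, and replicate 2 had none by this window. The replicate 2 counterpart of the 3.05 peak, at 0.796, lay 503 bp from the nearest start, just outside the window, while the 1.08 peak had no counterpart. Within 250 bp of these starts, 100% of bases in replicate 1 and 3.45% in replicate 2 lay in runs with a false discovery rate (FDR) of the cut rate under 0.05.

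Egr3 (chromosome 14, 70077203 to 70082614), needed for muscle spindle formation and induced by activity in neurons, had 6.58 and 2.90 at a peak just upstream of its cluster of starts. A retained-intron transcript starting 1536 bp downstream had 1.57 and 0.583. Egr4 (chromosome 6, 85511121 to 85513589), the most compact of the Egr loci, has 1 annotated start, where the signal was 5.84 and 2.81. The other Egr3 promoter peaks reached at most 2.07 and 0.675.

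Nr4a1 (chromosome 15, 101254269 to 101274795), which encodes Nur77, was more accessible at an internal start than at its 5′ end. The start 12577 bp downstream had 7.44 in replicate 1 and 2.75 in replicate 2. The 5′ end had 3.34 and 1.02, and a retained-intron start 18592 bp downstream had no peak in either library. The internal start is the one in the RefSeq promoter table.

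Nr4a2 (chromosome 2, 57106830 to 57124003), which encodes Nurr1, a factor required by midbrain dopamine neurons, had the lowest promoter maximum of the 7 in both libraries. The start 8965 bp downstream of the 5′ end had 4.40 and 1.61, at percentiles 41.4 and 34.9. The 5′ end had 2.89 and 0.606, and the start 10931 bp downstream had no peak in either. As at Egr2 and Nr4a1, the strongest internal start outranked the 5′ end in both libraries.

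Nr4a3 (chromosome 4, 48045153 to 48086447), which encodes Nor1, showed the reverse order. Its 5′ end had 6.67 and 3.00. Starts 3961 and 6095 bp downstream had 0.798 and 0.699 in replicate 1 and no peak in replicate 2. The 500 bp either side of the Nr4a3 5′ end lay in FDR runs for 100% of bases in both libraries, against medians over all genes of 54.0% and 38.1%.

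Egr1 was first and Nr4a2 last in both libraries. The other 5 lay between 5.27 and 7.44 in replicate 1 and between 2.65 and 3.00 in replicate 2. Nr4a3, Egr3, Egr4 and Egr2 followed each other in that order in both, while Nr4a1 was above all 4 in replicate 1 and between Egr4 and Egr2 in replicate 2. With 1 value per library, differences between neighbours have no error within a library.

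**Figure D1:**
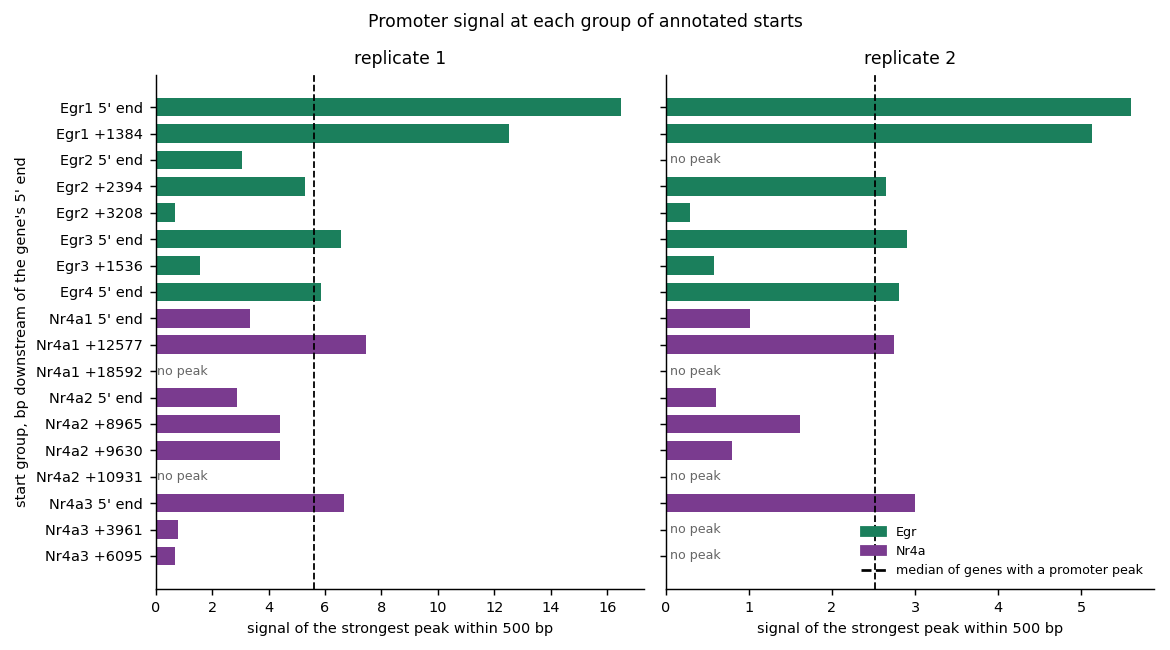
Signal of the strongest peak within 500 bp (horizontal axis, authors' units, 1 panel per library) at each group of annotated starts of the 7 genes (rows, bp downstream of the gene's 5′ end), as bars from 0. The dashed line is the median of genes with a promoter peak, 5.62 and 2.52. In both panels the Egr1 bars reach farthest. At Egr2, Nr4a1 and Nr4a2 the strongest internal start exceeds the 5′ end, while other internal starts have weaker peaks or none. At Nr4a2 the 2 middle rows share 1 peak in replicate 1.

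The CRE core TGACG was searched on both strands. It occurred in promoter peaks of all 7 members, at 26 positions, of which a full CRE in Nr4a2 supplies 2. In 200-base windows of promoter peaks, 8 of 27 member windows in replicate 1 (29.6%) and 9 of 21 in replicate 2 (42.9%) held it, against 19.5% and 19.1% of all. RefSeq promoters of 300 bases matched 5 members, in 9 windows, and Egr1 and Egr3 did not match. All 5 members had a core match in at least 1 window, 7 of 9 windows in all, against 20.8% of the 32851 promoters in the table. Of the 7 windows, 3 are overlapping Egr2 windows that hold the same 2 matches. The 7 windows each held 2 or more matches, as did 5.01% of all promoters. Nr4a1, Nr4a2 and Nr4a3 each had a window with 4 matches, a number reached by 76 promoters in the table, or 0.231%. The Nr4a2 window with 4 matches lies at the 5′ end of the gene (start 57124003) and is not the Nr4a2 sequence printed above. In the sequences above, the CRE of Nr4a2 and the clustered cores of Nr4a1 and Nr4a3 are in capitals.

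Footprints, short stretches within a peak that the enzyme cut less than their surroundings, covered many of these cores. Of the 26, 12 lay in footprints of both libraries, 46.2% against 24.5% of the 11089 core matches in promoter peaks genome-wide. Each of the 7 members had at least 1 such match. The full CRE of Nr4a2 (chromosome 2, 57115078 to 57115085) was among them and supplies 2 of the 12. The part of GC content in these shares was not tested. Promoter peaks of Egr1, Nr4a1 and Nr4a3 held 3 EGR sites, of which 1 (33.3%) lay in footprints of both libraries. Genome-wide, 42.7% of EGR sites in promoter peaks did. The 1 was that of Nr4a1, at 101266786 to 101266794. Those of Egr1 and Nr4a3 lay in footprints of replicate 1 only.

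CArG boxes were found in promoter peaks of Egr1 (3 matches), Egr2 (2) and Egr3 (1), and in none of Egr4, Nr4a1, Nr4a2 or Nr4a3. The share of 200-base windows of promoter peaks that hold a CArG box was 0.647% in replicate 1 and 0.805% in replicate 2 over all genes, and 3 of 27 and 4 of 21 member windows held one. Only 1 of the 6 matches, that of Egr2 at 67537797 to 67537806, lay in a footprint, and it did so in both libraries, as 11.4% of CArG matches in promoter peaks did genome-wide. It is the CArG box in capitals in the Egr2 sequence. The NBRE (AAAGGTCA), the site of the Nr4a receptors themselves, and the AP-1 site (TGANTCA) had 0 matches in the members' promoter peaks, where 0.373% and 0.399% of all windows held an NBRE and 3.14% and 4.08% an AP-1 site. Nr4a1 alone of the 7 had MEF2 matches there, at 2 positions, each in a footprint of 1 library. In 200-base windows, 1 of 27 and 1 of 21 member windows held a MEF2 match, against 0.234% and 0.317% of all. The share of MEF2 matches in footprints genome-wide was not computed.

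Distal peaks numbered 56 in replicate 1 and 73 in replicate 2 over the 7 loci. The count per locus was 11 and 9 for Egr1, 4 and 5 for Egr2, 10 and 13 for Egr3, and 10 and 9 for Egr4. Among the receptors it was 6 and 14 for Nr4a1, 6 and 10 for Nr4a2, and 9 and 13 for Nr4a3. The median over all protein-coding genes was 4 and 6. All members but Egr2 exceeded it in both libraries, and Egr2 was at the median in replicate 1 and below it in replicate 2. With 100 kb either side, 3 members exceeded the median in both libraries instead of 6. Per 100 kb of locus the members' median percentile among all genes was 81.0 and 87.0, with a range from 58.3 for Egr2 to 93.9 for Egr1 in replicate 1 and from 49.2 for Egr2 to 96.9 for Egr3 in replicate 2.

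**Figure D2:**
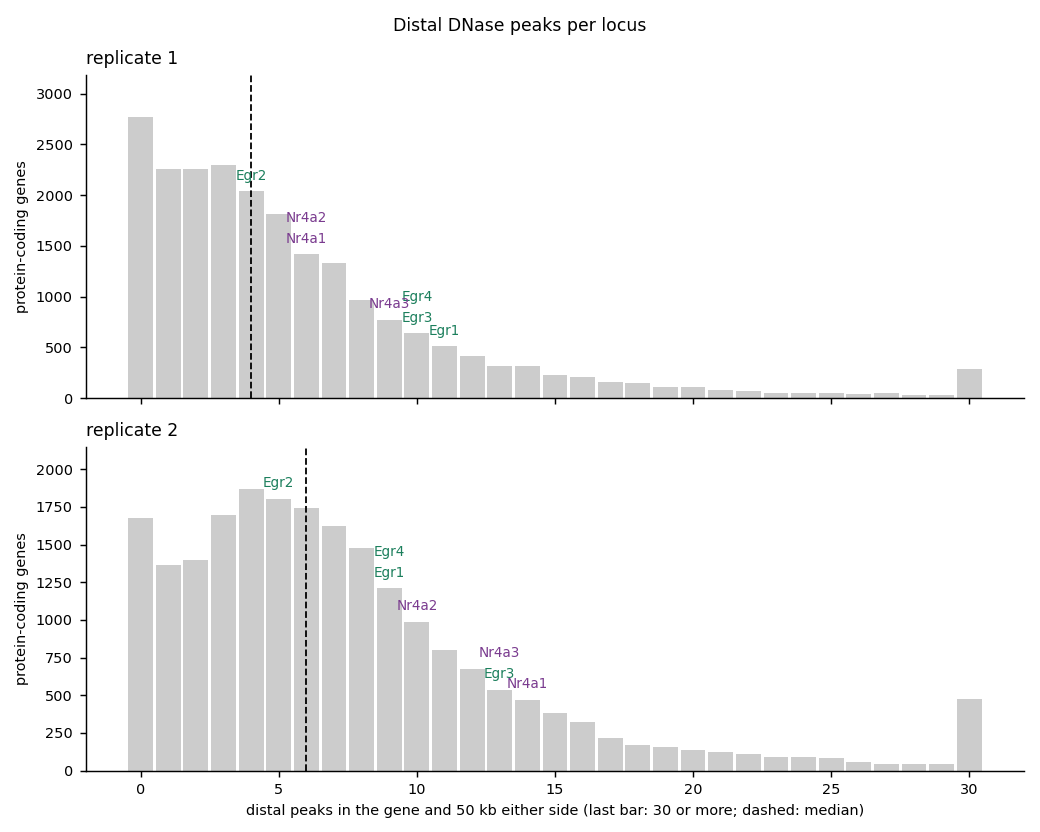
Distal peaks in the gene and 50 kb either side (horizontal axis) against the number of protein-coding genes (grey bars), 1 panel per library, with each member's name above the bar it falls in. The dashed lines are the medians, 4 and 6. All members but Egr2 lie to the right of the line in both panels with these 50 kb flanks.

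Of the members' distal peaks, 44 in replicate 1 (78.6%) and 45 in replicate 2 (61.6%) overlapped a peak of the other library, against 68.9% and 42.7% of all distal peaks. For promoter peaks the shares were 77.8% of 27 and 95.2% of 21, against 78.5% and 77% of all. The nearest protein-coding start was the member's own for 46 of the 56 and 47 of the 73 distal peaks. The rest lay nearer to a neighbour, and no peak was assigned to a target gene.

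Distal peaks upstream of Nr4a3, Nr4a1 and Egr3 ranked in the top 1% of all distal peaks in both libraries, and those of Nr4a3 and Nr4a1 are shown as sequence with the same capitals as above. The Nr4a3 peak is that of replicate 1 and the Nr4a1 peak that of replicate 2.
Nr4a3, chr4:48043321-48043580, plus strand: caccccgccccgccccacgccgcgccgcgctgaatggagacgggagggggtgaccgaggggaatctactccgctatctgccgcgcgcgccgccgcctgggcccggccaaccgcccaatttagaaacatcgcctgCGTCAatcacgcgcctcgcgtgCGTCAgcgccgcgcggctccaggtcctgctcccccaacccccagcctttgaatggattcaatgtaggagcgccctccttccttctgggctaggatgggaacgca
Nr4a1, chr15:101246281-101246560, plus strand: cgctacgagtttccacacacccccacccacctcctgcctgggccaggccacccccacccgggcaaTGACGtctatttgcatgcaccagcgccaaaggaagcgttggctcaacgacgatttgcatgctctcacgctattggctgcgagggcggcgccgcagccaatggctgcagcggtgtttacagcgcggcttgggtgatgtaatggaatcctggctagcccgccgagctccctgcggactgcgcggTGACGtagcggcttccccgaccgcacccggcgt

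The Nr4a3 peak, 1.57 kb upstream of the nearest Nr4a3 start, reached 10.8 in replicate 1 and 5.08 in replicate 2, percentiles 99.7 and 99.9 of distal peaks. That is above the gene's own promoter peak, 6.67 and 3.00, in both libraries. A neighbour 1.89 kb upstream had 6.12 and 2.34. Another peak, 41.4 kb upstream in intergenic sequence, had 3.71 and 2.67.

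The Nr4a1 peak, 7.65 kb upstream of the 5′ end, had 8.84 and 5.07, percentiles 99.5 and 99.9. It too exceeded both Nr4a1 promoter peaks in each library. A second Nr4a1 peak 13.3 kb upstream had 6.51 and 2.98. Of the 2 CRE cores in the printed Nr4a1 sequence, the one at 101246528 to 101246532 lay in a footprint of both libraries. The Egr3 peak, 2.06 kb upstream, had 7.13 and 3.32 against 6.58 and 2.90 at the promoter. How often a distal peak exceeds the promoter peak over all genes was not computed, so whether this order is unusual is not known.

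At Egr1 the distal signal lay farther out. A peak 26.3 kb downstream of the nearest Egr1 start (chromosome 18, 34887461 to 34887660) had 7.44 and 2.68, percentiles 99.1 and 98.7. The replicate 2 peak there held an EGR site at 34887446 to 34887454, covered by footprints in both libraries. A peak 9.42 kb upstream had 3.57 and 1.90 and held a CTCF match with a footprint in both. Another upstream peak, of 1.13 in replicate 2, held a full CRE at 34849881 to 34849888, also in footprints of both. The overlapping replicate 1 peak ended short of it, at 34849820. The replicate 2 peak lay nearer to a Reep2 start (9167 bp) than to an Egr1 start (9923 bp). These distal peaks stayed below the Egr1 promoter in both libraries.

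Egr2, Egr4 and Nr4a2 lacked distal peaks of this rank. The strongest shared Egr2 peak by the smaller percentile, 43.1 kb upstream, had 0.760 and 0.444, percentiles 55.9 and 50.6. The best of Egr4, 2.83 kb downstream of its start and just past the end of the gene, had 1.83 and 1.68, percentiles 85.9 and 94.6. The best of Nr4a2 lay in an intron 1.68 kb from a start and had 2.73 and 1.19, percentiles 92.2 and 88.6. Among distal peaks found in 1 library only, the highest were an intronic Nr4a3 peak of 1.24 in replicate 1 and an intergenic Nr4a1 locus peak of 0.831 in replicate 2.

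**Figure D3:**
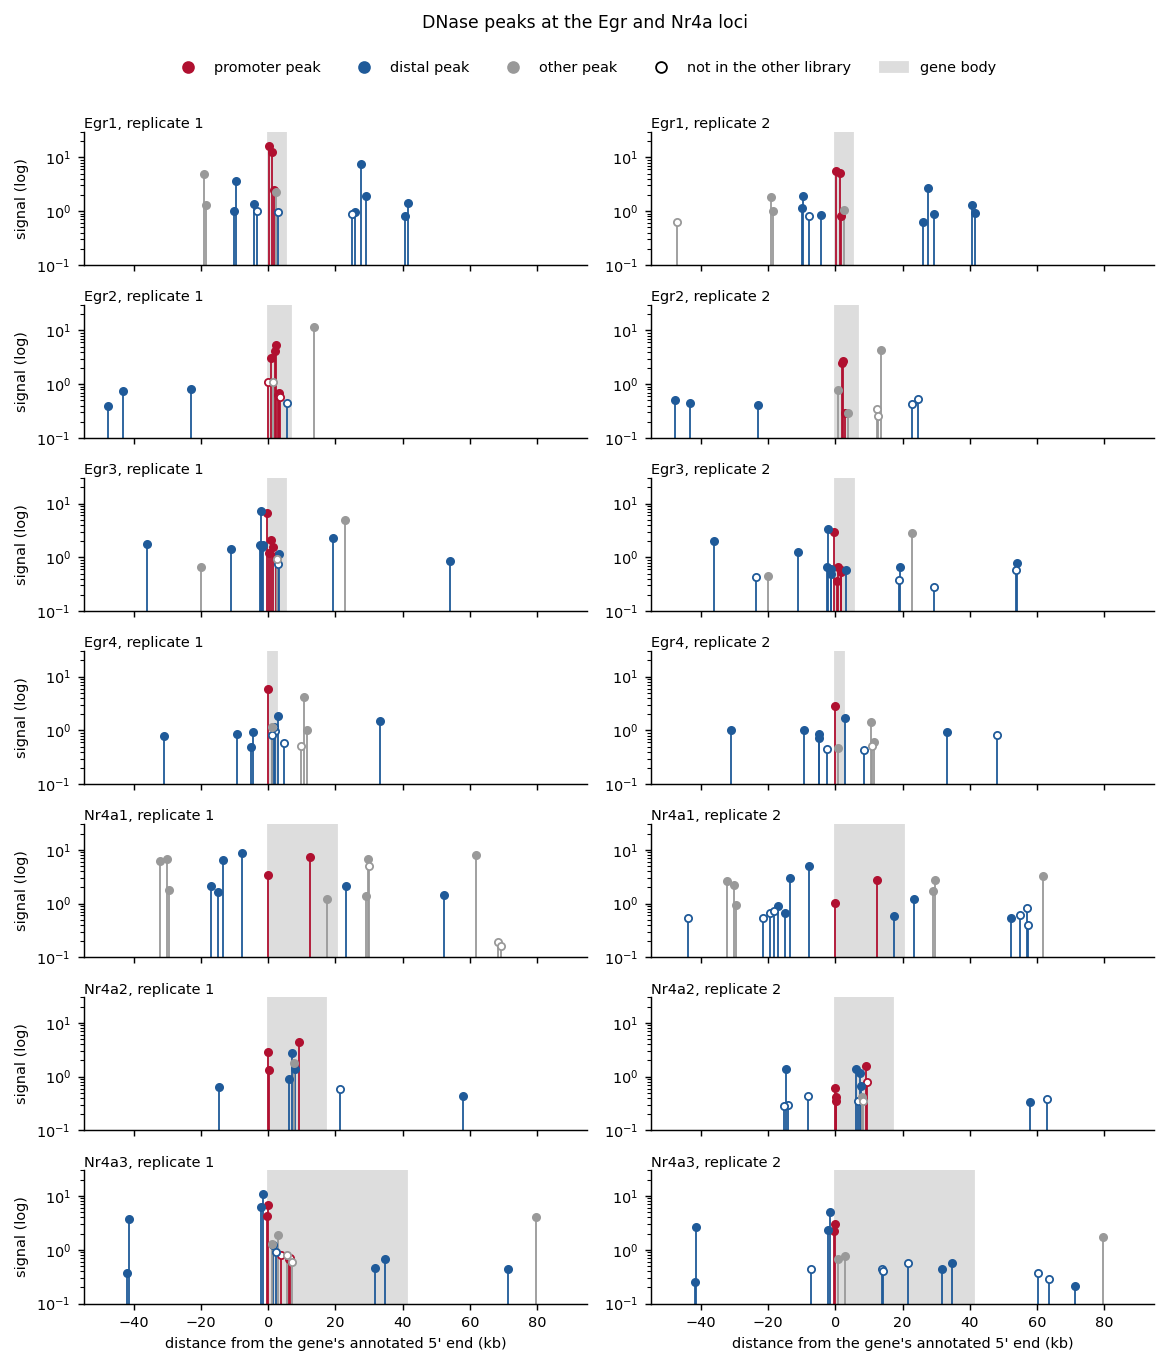
Signal of each peak (vertical, log axis, authors' units) by distance from the gene's annotated 5′ end (horizontal, kb, positive downstream) in the 7 loci, replicate 1 at left and replicate 2 at right. Red marks promoter peaks, blue distal peaks and grey other peaks, open circles peaks with no overlap in the other library, and shading the gene body. The highest blue peaks upstream of Nr4a3, Nr4a1 and Egr3 exceed the red ones in both columns, and Egr2 has no tall blue peak.

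CRE cores were also present in the members' distal windows, in 12 of 56 in replicate 1 (21.4%) and 12 of 73 in replicate 2 (16.4%), against 9.49% and 7.99% of all distal windows of 200 bases. Over whole distal peaks the members held 22 core matches, 6 of them (27.3%) in footprints of both libraries, against 6.10% of 14199 matches genome-wide. The full CRE at Egr1 supplies 2 of these 6. The 6 lay at Egr1, Egr3, Nr4a1 and Nr4a2. GC content moves with such counts, since the core holds a CpG, and its part was not tested. The GC-rich sequence GGGCGG was also more frequent at the members, in 21.4% and 17.8% of distal windows against 9.01% and 4.94% of all. CAGCTG was less frequent, 14.3% and 12.3% against 22.7% and 18.3%, and so was CAGATG, 19.6% and 20.5% against 25.6% and 30.2%. A CTCF match occurred at 1 distal position each at Egr1 and Egr3, both covered by footprints in both libraries, as were 68.9% of CTCF matches in distal peaks genome-wide. The NBRE had 0 matches in the members' distal peaks, against 0.539% and 0.566% of all distal windows.

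Footprints were more numerous per promoter peak at the members than over all genes, 4.48 against 3.64 in replicate 1 and 3.62 against 2.90 in replicate 2. Per 100 bp of peak the order differed between libraries, 1.24 against 1.34 in replicate 1 and 1.35 against 1.16 in replicate 2. Of 115 distinct footprints in promoter peaks of replicate 1, 45 (39.1%) overlapped one of replicate 2, and of 71 in replicate 2, 45 (63.4%) overlapped one of replicate 1. In distal peaks 54 of 123 (43.9%) and 51 of 136 (37.5%) did so. Most single footprints in these loci thus appeared in 1 library, except in the promoter peaks of replicate 2. The same shares over all promoter and distal peaks were not computed, so whether the members differ from other genes is not known.

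Accessibility at the Egr genes was not limited to starts. In bases of the gene over 1 kb from every annotated start, 12.5% of Egr1 in replicate 1 and 7.99% in replicate 2 lay in FDR runs. At Egr3 the shares were 30.4% and 7.51%. At Egr2 they were 20.9% and 0%, and at Egr4 88.4% and 0%. The median of the 14873 genes of 2 to 50 kb with at least 500 such bases was 0% in both libraries, and the 95th percentile was 10.9% and 7.78%. The Egr bodies were therefore more open than those of most genes in replicate 1, and in replicate 2 this held for Egr1 and Egr3 of the 4.

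Among the receptors, Nr4a2 had 10.4% and 14.0%, Nr4a3 4.40% and 3.18%, and Nr4a1 0.741% and 0.580%. All 3 were above the median of 0% in both libraries, as is any gene with a covered base. Of the 14873 genes, 60.8% in replicate 1 and 54.3% in replicate 2 had 0%. Nr4a1 stood at percentiles 68.7 and 59.9 of these genes. The Nr4a2 share was the highest of the 7 in replicate 2. These 3 genes are longer, at 17174, 41295 and 20527 bp against 2469 to 6714 bp for the Egr genes. Among genes of 2 to 10 kb alone, the 95th percentile was 23.3% and 13.6%, which Egr3 and Egr4 exceeded in replicate 1 and no Egr gene in replicate 2.

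A split such as that of Egr2 and Egr4, 20% or more in replicate 1 and 0 in replicate 2, occurred at 92 of the 14873 genes (0.619%), and the opposite split at 9 (0.0605%). The rule was chosen after these values were seen. The body bases of the 92 genes had a median GC content of 53.6% against 45.0% over all. At Egr4 it was 66.6% and at Egr2 52.7%, against 50.9% at Egr1 and 47.0% at Egr3. Distal peaks found only in replicate 1 were also GC-rich, with a median of 55.4% against 44.3% for those only in replicate 2. The part of base composition in the split was not tested.

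**Figure D4:**
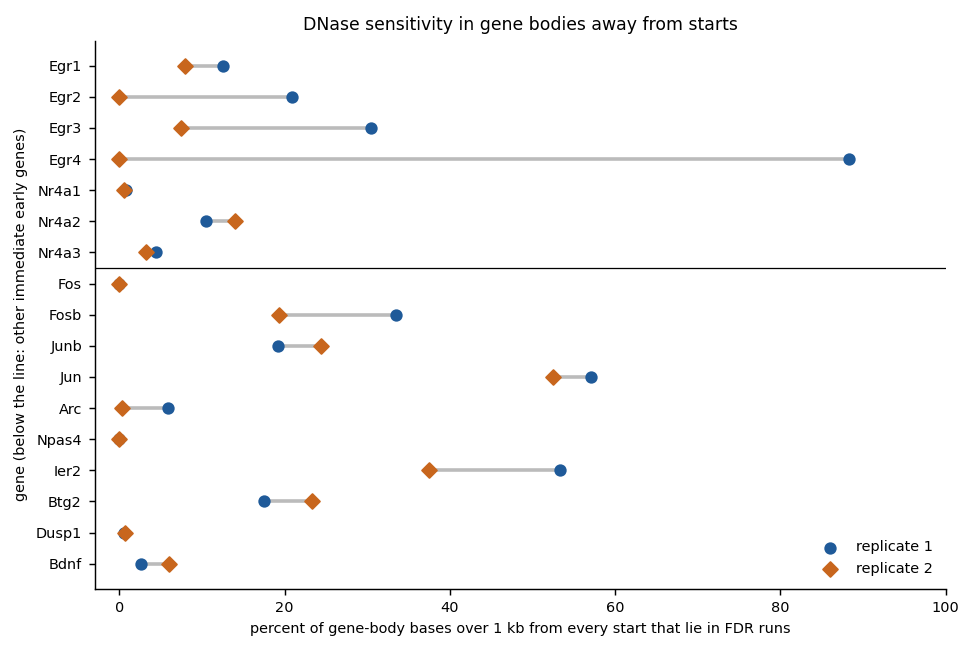
Percent of gene-body bases over 1 kb from every start that lie in FDR runs (horizontal axis) for the 7 members, above the line, and 10 other immediate early genes, below it. Circles are replicate 1 and diamonds replicate 2, joined by a bar. Egr4 spans 0% to 88.4%, and the Nr4a genes show short bars.

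The same measure was taken at the 10 other immediate early genes of a fixed list. Jun, the AP-1 subunit gene, had 57.1% and 52.5%. Ier2, a small nuclear protein gene, had 53.4% and 37.4%. Fosb, also of AP-1, had 33.5% and 19.4%. With Junb (19.2% and 24.4%) and Btg2 (17.6% and 23.4%), 5 of the 10 stood above the 95th percentile of genes of 2 to 50 kb in both libraries. Against genes of 2 to 10 kb, 3 of the 10 did (Jun, Ier2 and Fosb). Fos and Npas4, both strongly induced by activity, had 0% in both. None of the 10 had the split of Egr2 and Egr4.

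All 37 genes of a pathway list had a promoter peak in both libraries: 20 upstream regulators, 7 cofactors and partners, and 10 other immediate early genes. That share stands beside the 63.2% of all genes given above. Median signal was 9.35 and 3.36 for the regulators, among them Srf, Creb1 and the Elk and Mef2 genes. Elk1, Elk3, Elk4 and Mef2c lay below the medians of accessible promoters, 5.62 and 2.52, in both libraries. Srf, Creb1, Mef2a and Mef2d lay above them. The median was 9.52 and 4.17 for the immediate early genes. For cofactors and partners it was 2.88 and 1.21. Of these, Nab1 and Nab2, corepressors that bind Egr proteins, had 2.38 and 0.767, and 2.85 and 1.21. Rxra, Rxrb and Rxrg, the retinoid receptors with which Nr4a1 and Nr4a2 can pair, had 3.81, 17.7 and 2.14 in replicate 1 and 1.52, 5.68 and 0.785 in replicate 2. The members' medians, 6.58 and 2.81, lay between those of the regulators and of the cofactors.

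The other immediate early genes also stood above most genes in distal peaks. Their median count was 11 and 11.5 per locus, and their median percentile per 100 kb was 91.0 and 92.6, against 81.0 and 87.0 for the members. For the regulators it was 56.0 and 56.6. Btg2 had 15 and 19 distal peaks, Fosb 16 and 13, Fos 13 and 14, and Jun 3 and 6.

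By promoter signal and distal count combined, as percentiles among all genes in each library, the genes nearest to the members' median were Rrm2, Hdac11 and Ggcx. The members and the genes of the pathway list were left out of this search. Rrm2, a subunit of ribonucleotide reductase, had promoter signals of 7.01 and 2.73 and 9 and 10 distal peaks. The likeness is over 4 percentiles from 2 libraries, with Euclidean distances of 1.83, 3.05 and 3.40 percentile points.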

How the data were processed

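The authors deposited, per the file listings of each library, 2 lists of peaks, each peak with a signal value, footprints with a constant score, and runs of bases with the FDR (q-value) of the cut rate under 0.05, all derived on mm10 from that library's own alignment. The aligner and the callers were not given in the sources used here. In each library the longer peak list was used. Starts and genes came from GENCODE M21, sequence from GRCm38.p6, the C57BL/6J reference, so bases of the CAST/EiJ parent can differ from those printed. Percentiles, overlaps (at least 1 bp) and exact consensus matches on both strands were computed in Python 3.11.15 (numpy 2.4.6, pandas 2.3.3, pysam 0.24.0) and the functions were tested on simulated intervals. A match was in a footprint when they overlapped by at least 1 bp. With 1 group and 2 libraries no test was run, and no column was left out as another sample's. All members and their strongest promoter peaks were named, and some weaker promoter peaks are not reported here. Up to 3 shared distal peaks per member were chosen by their smaller signal percentile over both. The strongest peak of each library that the other lacked and the 3 most alike genes were named too. Some sequences and list genes are not reported here. Members, lists and motifs were chosen with earlier results of these data known.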

Additional observations from a re-analysis of the deposited data

How the results depend on the processing

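Across 14 summaries and 65 alternatives, 55 values stayed within 1.5 times the reported count or 1 SD between the libraries and 10 moved. For summaries in percent, leaving out 1 of the 2 libraries always stays within that SD. Those alternatives are among the 55 and could not have moved, so they say nothing about stability. Values here are means of both libraries unless stated. Member promoter peaks numbered 24, and 10 with the annotated 5′ end only, where 6 members, all but Egr2, had one in both libraries. Member distal peaks numbered 64.5, and 37 in the shorter list, 42 with 20 kb flanks and 101.5 with 100 kb flanks. With 100 kb flanks 3 members, not 6, exceeded the median of all genes in both libraries. Overlap of at least 50% of both peaks lowered the shared share from 70.1% to 46.4% for distal and from 86.5% to 61.1% for promoter peaks. The median member promoter lay in FDR runs for 80.6% of its bases, 69.8% at an FDR under 0.01 and 89.4% within 250 bp. CRE cores were in 18.9% of the members' distal windows and in 28.7% with 400-base windows. Using 1 library gave distal counts from 56 to 73 and shared distal shares from 61.6% to 78.6%. Merging overlapping peaks and the gene-body measure were added after seeing the data. The cause of each move was not tested. No paired analysis was possible because the study has 1 group. With 2 libraries, 1 value per library and unknown depth, an absent peak is not evidence of closed chromatin.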
